A study of Mus musculus with 6 samples.

Results

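The enzymes of glycolysis, the pentose phosphate pathway and the citrate cycle were followed in macrophages of the cerebrospinal fluid (CSF) of mice with leptomeningeal metastasis. The members were 45 genes picked by symbol, of 34652 genes in the deposited table, and all 45 had a row. They were 17 of glycolysis down to lactate, 3 that set the level of fructose bisphosphates, and 4 of pyruvate dehydrogenase and its kinase. A further 11 were of the citrate cycle with its cytosolic side enzymes and 7 of the pentose phosphate pathway. The last 3, Acly, Me1 and Me2, act on citrate or malate. The tested population was the resident macrophages, labelled dLAM, sorted as CD45+CD11b+F4/80+Ly6C-GFP+ cells. The population it was set against was the monocyte-macrophages, labelled Mono-MΦ, a mixture of GFP- cells, some CD45+CD11b+F4/80+ and others F4/80lowLy6C+ within the CD45+CD11b+ gate. Both came from Cx3cr1CreER:mTmG mice given tamoxifen, 12 days after inoculation of LLC-LeptoM, tumor cells derived from Lewis lung carcinoma that colonize the leptomeninges. In these mice Cre sits under control of Cx3cr1, and the reporter turns green where Cre has acted, so GFP marks cells that carried active Cx3cr1 at the time of tamoxifen, or their offspring, and not a cell type as such. The labels give no age, no control without tumor and no number of mice behind a library. There were 3 bulk RNA libraries of each population.

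Glycolysis splits glucose into pyruvate and yields ATP without oxygen, and macrophages rely on it strongly when they respond to microbes or tissue damage. The pentose phosphate pathway branches off at glucose 6-phosphate: its oxidative steps make NADPH, which phagocytes spend on the oxidative burst, on glutathione and on lipid synthesis, and its later steps make ribose for nucleotides and return sugars to glycolysis. The citrate cycle oxidizes the acetyl groups that pyruvate dehydrogenase supplies in mitochondria.

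The separation of the sorted populations was visible in their markers. All 10 border macrophage and all 6 microglia markers were higher in the resident libraries, and all 8 classical monocyte markers were lower. Among all tested genes 19.9% were called higher and 10.6% lower. Markers of other cells moved as well: higher were 12 of 12 T cell and 7 of 8 dendritic cell markers, of the other lists 3 of 6 natural killer cell, 4 of 7 B and plasma cell, 3 of 8 carcinoma, 3 of 6 red cell and 1 of 6 meningeal fibroblast markers, whose other members were not tested, and lower were 6 of 10 neutrophil and 15 of 17 cell cycle genes, while 0 of 10 handling stress genes passed limma (1 at an unadjusted p under 0.05). Of the 78 markers called in any list, 23 reached 1 FPKM in resident libraries alone. Among them were 4 of the 10 border macrophage, 3 of the 6 microglia, 6 of the 7 called dendritic cell and 2 of the 12 T cell markers. Epcam, Krt18, Col3a1 and Hbb-bs were among them as well. The filter itself left these 23 no other direction, and their counts are a description. Of the defining markers, the B cell genes Ms4a1 and Pax5, the epithelial genes Krt8, Krt19, Krt7, Cldn4 and Cldn7, and the red cell gene Alas2 stayed below 1 FPKM in every library. Summed T cell markers lay between 208 and 276 FPKM in resident libraries and between 10.3 and 40.2 in monocyte-macrophage libraries, and summed carcinoma markers between 27.0 and 31.9 against 1.99 and 3.18. That sum was nearly all Cdh1, at 21.6 FPKM on average in resident and 1.71 FPKM in monocyte-macrophage libraries, and Epcam, at 6.02 and 0.165 FPKM, while Krt7 averaged 0.164 FPKM in resident and 0.305 FPKM in monocyte-macrophage libraries. Estimated depth ran from 12300000 to 17000000 fragments in a library. In bulk samples fewer cells of a type and less RNA per cell cannot be told apart. FPKM scales a gene's fragments to its length and to the library's total, so levels of different genes can be set side by side where reads map to 1 place. The treatment of reads that map to several places is not stated, so levels of genes with near-identical copies are uncertain, as are shares, ratios and sums that include them.

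Across the pathways, the pentose phosphate enzymes were the members that fell together in resident macrophages, and most glycolysis and citrate cycle enzymes did not pass the test. Of the 45 members, 43 reached 1 FPKM in at least 3 libraries and were tested. By limma with Benjamini-Hochberg adjustment over all genes, 8 were lower in resident macrophages and 5 higher, and 30 did not pass. Those are 18.6% and 11.6% of the tested members, against a background of 10.6% of all 11317 tested genes called lower and 19.9% called higher, or 30.5% called in either direction. The median log2 fold change, resident minus monocyte-macrophage on the log2(FPKM + 1) scale, was -0.13 over the tested members and 0.06 over all tested genes. The 8 were G6pdx, Pgd, Taldo1, Rpe and Rpia of the pentose phosphate pathway, Idh1, Me2 and Gpi1. The 5 were Aldoc, Pfkm, Pdk1, Mdh2 and Fh1. Without regard to the test, all 3 resident libraries lay below all 3 monocyte-macrophage libraries for 15 of the tested members, a share of 34.9% beside 16.9% of all tested genes, and above them for 11, a share of 25.6% beside 29.3%.

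**Figure D1:**
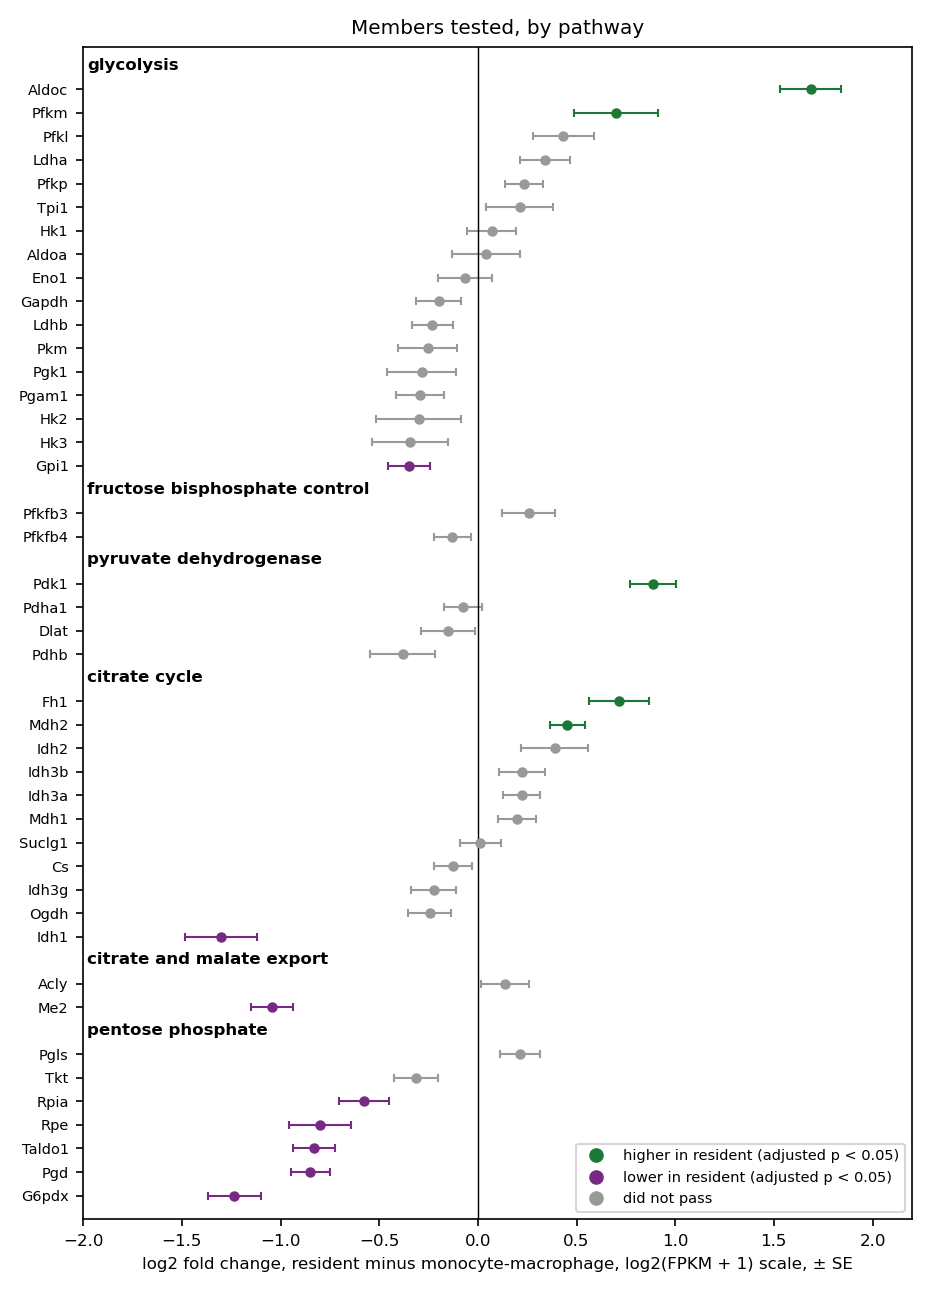
Log2 fold change (x axis, resident minus monocyte-macrophage on the log2(FPKM + 1) scale, bars ± SE) of the 43 tested members, grouped by pathway down the page; colour marks an adjusted p under 0.05 by limma. The pentose phosphate group has 5 of 7 members to the left that passed, with G6pdx at -1.23, and Aldoc at 1.69 stands farthest to the right.

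The promoters of the 5 pentose phosphate genes that fell are shown because these genes moved together. Each line gives the 250 bases upstream of the most distal RefSeq start on build GRCm38.p6, written 5′ to 3′ along the gene's strand, at chrX:74428881-74429130 for G6pdx (minus strand), chr4:149166706-149166955 for Pgd (minus strand), chr7:141391910-141392159 for Taldo1 (plus strand), chr1:66700581-66700830 for Rpe (plus strand), chr6:70792176-70792425 for Rpia (minus strand). Capitals mark GGGCGG, the core of a GC box, on either strand (CCGCCC when read on the other strand), and in G6pdx also TGACNNNGC on the reverse strand, the core of an antioxidant response element.
G6pdx: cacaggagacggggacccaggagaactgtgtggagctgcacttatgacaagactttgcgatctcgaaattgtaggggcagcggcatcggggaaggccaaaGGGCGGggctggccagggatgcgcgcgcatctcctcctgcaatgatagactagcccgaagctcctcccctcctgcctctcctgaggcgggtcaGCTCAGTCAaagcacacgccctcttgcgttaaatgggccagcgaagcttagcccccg
Pgd: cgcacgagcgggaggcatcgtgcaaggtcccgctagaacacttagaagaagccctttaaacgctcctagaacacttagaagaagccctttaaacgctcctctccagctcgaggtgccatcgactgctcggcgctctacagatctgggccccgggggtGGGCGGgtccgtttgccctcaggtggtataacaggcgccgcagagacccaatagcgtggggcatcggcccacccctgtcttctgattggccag
Taldo1: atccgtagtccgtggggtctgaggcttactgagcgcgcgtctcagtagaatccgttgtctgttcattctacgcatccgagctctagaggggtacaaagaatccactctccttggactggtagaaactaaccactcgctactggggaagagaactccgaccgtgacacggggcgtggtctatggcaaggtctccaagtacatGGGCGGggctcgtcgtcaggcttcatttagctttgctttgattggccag
Rpe: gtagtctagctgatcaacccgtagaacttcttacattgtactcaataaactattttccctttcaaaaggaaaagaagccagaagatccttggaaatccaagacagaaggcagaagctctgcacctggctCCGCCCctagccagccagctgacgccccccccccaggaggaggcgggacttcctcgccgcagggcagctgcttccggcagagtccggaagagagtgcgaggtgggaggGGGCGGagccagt
Rpia: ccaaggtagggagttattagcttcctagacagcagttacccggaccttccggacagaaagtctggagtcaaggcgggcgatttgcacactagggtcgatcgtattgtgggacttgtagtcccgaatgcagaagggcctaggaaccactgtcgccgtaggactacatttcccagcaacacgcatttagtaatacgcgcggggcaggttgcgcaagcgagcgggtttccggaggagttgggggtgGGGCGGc
GGGCGG occurred in 5 of these 5 windows, in 29 of the 43 members with a RefSeq promoter, in 8 of 17 glycolysis members and in 32.7% of all 32851 promoters in the same window. It also occurred in 4 of the 5 members that were higher, and in Pgls and Tkt, the pentose phosphate members that did not pass. TGACNNNGC occurred in 1 of the 5 and in 10.2% of all promoters. ACGTG, the core bound by hypoxia-inducible factors, occurred in 0 of the 5, in 6 of 17 glycolysis members and in 16.6% of all promoters; CACGTG, the E-box that contains ACGTG, occurred in 0 of the 5, in 2 glycolysis members and in 6.02% of all. These matches describe the letters of the windows only. The windows of G6pdx, Pgd and Rpia overlap the gene's span in GENCODE M21, which sets an earlier start than RefSeq. Me2 and Idh3a had no promoter entry.

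Both NADPH-making steps of the pentose phosphate pathway fell in resident macrophages. G6pdx encodes glucose-6-phosphate dehydrogenase, which commits glucose 6-phosphate to the pathway (chromosome X, 74409483 to 74429194 on mm10, with the GC box promoter shown for it above). It was at 36.6, 33.3 and 32.6 FPKM in libraries 1 to 3 of resident macrophages, against 82.7, 68.3 and 96.0 FPKM in monocyte-macrophage libraries 1 to 3. No library of either group reached into the range of the other. The means were 34.1 ± 2.15 and 82.3 ± 13.8 FPKM (SD, n = 3 each), a level 2.41-fold lower, with a log2 fold change of -1.23 (SE 0.14, limma adjusted p = 5.4e-04). Pgd, the 6-phosphogluconate dehydrogenase gene on chromosome 4 (149149991 to 149166771), was at 20.3, 21.6 and 20.1 FPKM in resident libraries, against 37.3, 35.0 and 41.9 in monocyte-macrophage libraries. The resident values lay within 1.52 FPKM of each other and all below the other group, with a log2 fold change of -0.85 (SE 0.10, limma adjusted p = 7.2e-04). Pgls, the lactonase that acts between these dehydrogenases, gave no call: its means were 8.28 ± 0.331 and 7.00 ± 0.410 FPKM (SD, n = 3 each) in resident and monocyte-macrophage libraries, its log2 fold change was 0.21, and it did not pass (adjusted p = 0.15).

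The non-oxidative steps moved the same way as the dehydrogenases, with Tkt short of the threshold. Taldo1, the transaldolase gene on chromosome 7 (141392199 to 141402968), had the highest level of the pathway, at 112, 97.3 and 103 FPKM in resident libraries, against 194, 171 and 191 FPKM in monocyte-macrophage libraries. The gap between the groups was wider than the spread within either, and the log2 fold change was -0.83 (SE 0.11, limma adjusted p = 0.0011). Rpe, the epimerase that makes xylulose 5-phosphate (chromosome 1, 66700831 to 66719805), stood at 9.60, 8.54 and 9.25 FPKM in resident libraries, against 13.04, 17.3 and 20.2 FPKM in monocyte-macrophage libraries. Here the monocyte-macrophage libraries spread over a range of 7.20 FPKM but still lay above all resident libraries, and Rpe fell by 0.80 on the log2 scale (SE 0.16, limma adjusted p = 0.0075). Rpia, the isomerase that makes ribose 5-phosphate (chromosome 6, 70765720 to 70792232), had a log2 fold change of -0.58 (SE 0.13, limma adjusted p = 0.012), at 3.66 ± 0.470 and 5.95 ± 0.541 FPKM (SD, n = 3 each) in resident and monocyte-macrophage libraries. Tkt, the transketolase gene, was at 52.8, 50.9 and 43.5 FPKM in resident libraries, against 58.1, 58.7 and 66.7 FPKM in monocyte-macrophage libraries; the groups did not overlap, but its log2 fold change of -0.32 missed the threshold (limma adjusted p = 0.069), and it passed with median-of-ratios scaling (adjusted p = 0.045) and with a term for Y-linked RNA (adjusted p = 0.045). Summed over the 7 members, the pathway stood at 229 ± 12.2 FPKM in resident macrophages and 397 ± 32.9 FPKM in monocyte-macrophages (SD, n = 3 each), a ratio of 0.576.

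Other measures moved with these values. The summed level of the 10 neutrophil markers was between 1264 and 1650 FPKM in resident libraries, and 2094, 7238 and 12166 FPKM in monocyte-macrophage libraries 1 to 3. Across the same monocyte-macrophage libraries the highest value was 1.55 times the lowest for Rpe, 1.41 times for G6pdx, 1.20 times for Pgd and Rpia and 1.13 times for Taldo1. Rpe had its lowest, middle and highest value in the same libraries as the neutrophil sum. Without monocyte-macrophage library 3, which had the most neutrophil marker RNA, the log2 fold changes were -1.12 for G6pdx, -0.78 for Pgd and -0.81 for Taldo1, and each passed (limma adjusted p = 0.0015, 0.0022 and 0.0041). Rpe was at -0.66 and Rpia at -0.52 without it and passed as well (limma adjusted p = 0.017 and 0.033). Cell cycle genes summed to between 143 and 161 FPKM in resident libraries, and to 431, 385 and 561 FPKM in monocyte-macrophage libraries 1 to 3. G6pdx, Pgd and Rpia had their lowest, middle and highest value in the same libraries as the cell cycle sum. Taldo1 followed neither order. Classical monocyte markers summed to between 528 and 754 FPKM in resident libraries. In monocyte-macrophage libraries they summed to between 3225 and 4897 FPKM, in the same order of libraries as the neutrophil sum. The part of these 3 lists in the fall of the pentose phosphate enzymes was not tested. G6pdx lies on the X chromosome, and Y-linked Ddx3y stood at 10.1 FPKM in resident library 3 and 10.6 FPKM in monocyte-macrophage library 2, against 1.56 to 2.68 FPKM in the other 4 libraries. Fitted to those 4 libraries alone, an alternative chosen after seeing the data, 3 of the 7 pentose phosphate members were lower, G6pdx, Pgd and Taldo1, with G6pdx at -1.33 (limma adjusted p = 0.0039); Rpe at -0.78 and Rpia at -0.57 missed the threshold there (adjusted p = 0.066 and 0.056). The pair of libraries with more Y-linked RNA has 1 library of each group and allows no test; G6pdx was at 32.6 FPKM in the resident and 68.3 FPKM in the monocyte-macrophage library of that pair.

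**Figure D2:**
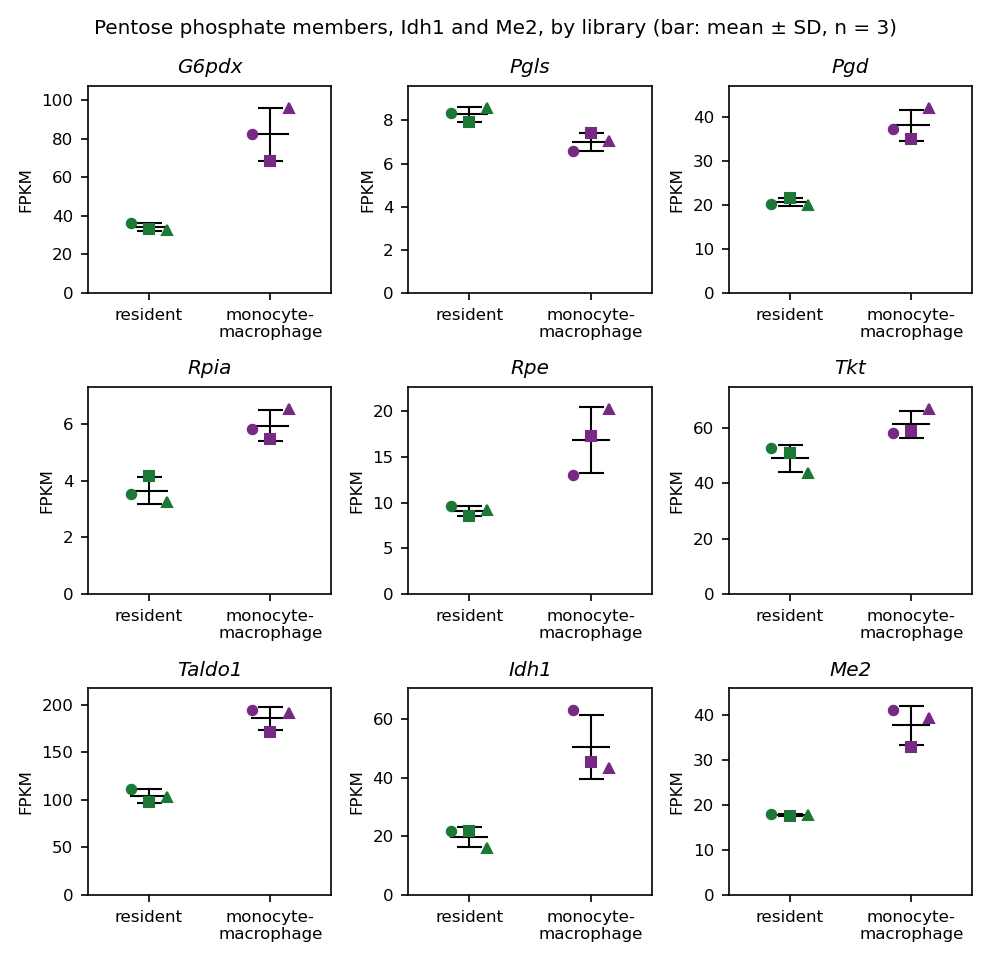
FPKM (y axis, from 0) of the 7 pentose phosphate members, Idh1 and Me2 in resident and monocyte-macrophage libraries; circles, squares and triangles are libraries 1, 2 and 3 of a group, and bars show the mean ± SD. In every panel except Pgls the 3 resident libraries lie below the 3 monocyte-macrophage libraries, for G6pdx at 32.6 to 36.6 against 68.3 to 96.0 FPKM.

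Idh1 and Me2, which act on isocitrate and malate, also fell. Idh1 encodes the cytosolic isocitrate dehydrogenase, which also makes NADPH (chromosome 1, 65158616 to 65186500). It was at 21.8, 21.9 and 15.9 FPKM in resident libraries, against 63.2, 45.4 and 43.3 FPKM in monocyte-macrophage libraries. All resident libraries were below all others, with the widest spread among the monocyte-macrophage libraries, and the log2 fold change was -1.30 (SE 0.18, limma adjusted p = 0.0015). Me2, the mitochondrial malic enzyme gene, was at 17.9, 17.5 and 17.7 FPKM in resident libraries, against 41.0, 32.8 and 39.3 FPKM in monocyte-macrophage libraries. The resident libraries differed by at most 0.358 FPKM, and Me2 fell by 1.04 on the log2 scale (SE 0.11, limma adjusted p = 4.2e-04). Me1, the cytosolic malic enzyme, was near the floor of detection, at 0.0605, 0.0145 and 0.0577 FPKM in resident libraries, against 0.0392, 0 and 0.0105 FPKM in monocyte-macrophage libraries; that is at most an estimated 3.44 fragments in a library, so no difference was detectable at this depth. Acly, which splits exported citrate into acetyl-CoA for lipid synthesis, was at 40.3, 37.2 and 32.3 FPKM in resident libraries, against 37.0, 32.5 and 29.9 FPKM in monocyte-macrophage libraries. The groups overlapped, and its log2 fold change of 0.14 did not pass (adjusted p = 0.44).

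The mitochondrial counterpart of Idh1 did not pass. Idh2, which makes NADPH from isocitrate inside mitochondria, averaged 13.04 ± 2.11 FPKM in resident macrophages and 9.77 ± 2.04 FPKM in monocyte-macrophages (SD, n = 3 each), and its log2 fold change was 0.39 (adjusted p = 0.13, and adjusted p = 0.048 without monocyte-macrophage library 1). As a share of the summed FPKM of both genes, Idh1 held 63.2%, 58.8% and 58.8% in resident libraries 1 to 3, against 84.1%, 85.2% and 82.1% in monocyte-macrophage libraries 1 to 3. The groups did not overlap in this share, and the means were 60.3 ± 2.52% and 83.8 ± 1.53% (SD, n = 3 each), a difference of -23.5 percentage points. With 3 libraries against 3, no exact permutation test can give a p below 0.10, so shares are given as values without a test.

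Among the citrate cycle members other than Idh1, Fh1 and Mdh2 rose and the others did not pass. With Idh1, 2 of the 11 members were higher, 1 was lower and 8 did not pass limma. Of all tested genes 19.9% were called higher and 10.6% lower, and the counts for the citrate cycle are a description beside those shares. Fh1, the fumarase gene on chromosome 1 (175600374 to 175625635), was at 11.996, 11.4 and 10.1 FPKM in resident libraries, against 7.93, 6.26 and 5.23 FPKM in monocyte-macrophage libraries. Every resident library was above every monocyte-macrophage library, and Fh1 rose by 0.72 on the log2 scale (SE 0.15, limma adjusted p = 0.010; adjusted p = 0.053 in the 4 libraries low in Y-linked RNA). Mdh2, the mitochondrial malate dehydrogenase gene on chromosome 5 (135778480 to 135790398), was at 39.4, 40.5 and 37.4 FPKM in resident libraries, against 28.9, 26.8 and 29.1 FPKM in monocyte-macrophage libraries. That gap was wider than the spread within either group, and Mdh2 rose by 0.45 (SE 0.09, limma adjusted p = 0.0069). Cs, the citrate synthase that starts the cycle, was at 52.5, 46.7 and 54.0 FPKM in resident libraries, against 58.2, 55.4 and 53.7 FPKM in monocyte-macrophage libraries, and the groups overlapped. Ogdh, a subunit of the 2-oxoglutarate dehydrogenase complex, was at 19.1, 18.6 and 18.3 FPKM in resident libraries, against 24.2, 19.4 and 23.6 FPKM in monocyte-macrophage libraries. Its groups did not overlap, yet the log2 fold change of -0.24 did not pass (adjusted p = 0.13, and adjusted p = 0.039 without monocyte-macrophage library 2). The NAD-linked isocitrate dehydrogenase subunits Idh3a, Idh3b and Idh3g had log2 fold changes of 0.22, 0.22 and -0.22, the cytosolic Mdh1 of 0.20 and the succinyl-CoA ligase subunit Suclg1 of 0.01 (below 0 with median-of-ratios scaling and quantile normalization), and none of these 5 passed limma. The 11 members summed to 234 ± 5.81 FPKM in resident macrophages and 247 ± 22.5 FPKM in monocyte-macrophages (SD, n = 3 each). That sum includes the cytosolic Idh1, at 19.9 ± 3.42 and 50.6 ± 10.9 FPKM (SD, n = 3 each) in resident and monocyte-macrophage libraries. Of the 11 members 7 had a log2 fold change above 0 and 4 below, so the sum does not give the direction of most members.

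At the entry to the cycle, the kinase gene Pdk1 rose, and neither the tested kinase paralogs nor the subunits of the enzyme passed. Pdk1 encodes a kinase that switches off pyruvate dehydrogenase (chromosome 2, 71873224 to 71903858). It was at 6.09, 5.50 and 5.08 FPKM in resident libraries, against 2.46, 2.49 and 2.66 FPKM in monocyte-macrophage libraries. The groups lay far apart, at a ratio of means of 2.19, and Pdk1 rose by 0.89 on the log2 scale (SE 0.12, limma adjusted p = 0.0011). Its paralog Pdk3 was the more abundant, at 14.6 ± 0.445 FPKM in resident and 15.1 ± 3.36 FPKM in monocyte-macrophage libraries (SD, n = 3 each), with a log2 fold change of -0.020 (adjusted p = 0.94), and Pdk2 had 0.30 (adjusted p = 0.31). The subunit genes Pdha1, Pdhb and Dlat had log2 fold changes of -0.08, -0.38 and -0.15, and none passed. The ratio of Pdk1 to Pdha1 FPKM was 0.211, 0.203 and 0.184 in resident libraries, against 0.0832, 0.0924 and 0.0834 in monocyte-macrophage libraries, so that the groups did not overlap in it. Of 9 other tested genes of this step, 1 was higher by limma and 8 did not pass, where 19.9% of all tested genes were called higher. The 1 was Pdp2, a phosphatase that switches the complex on (log2 fold change 0.72). The transport subunits Mpc1 and Mpc2 had log2 fold changes of -0.13 and -0.47.

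**Figure D3:**
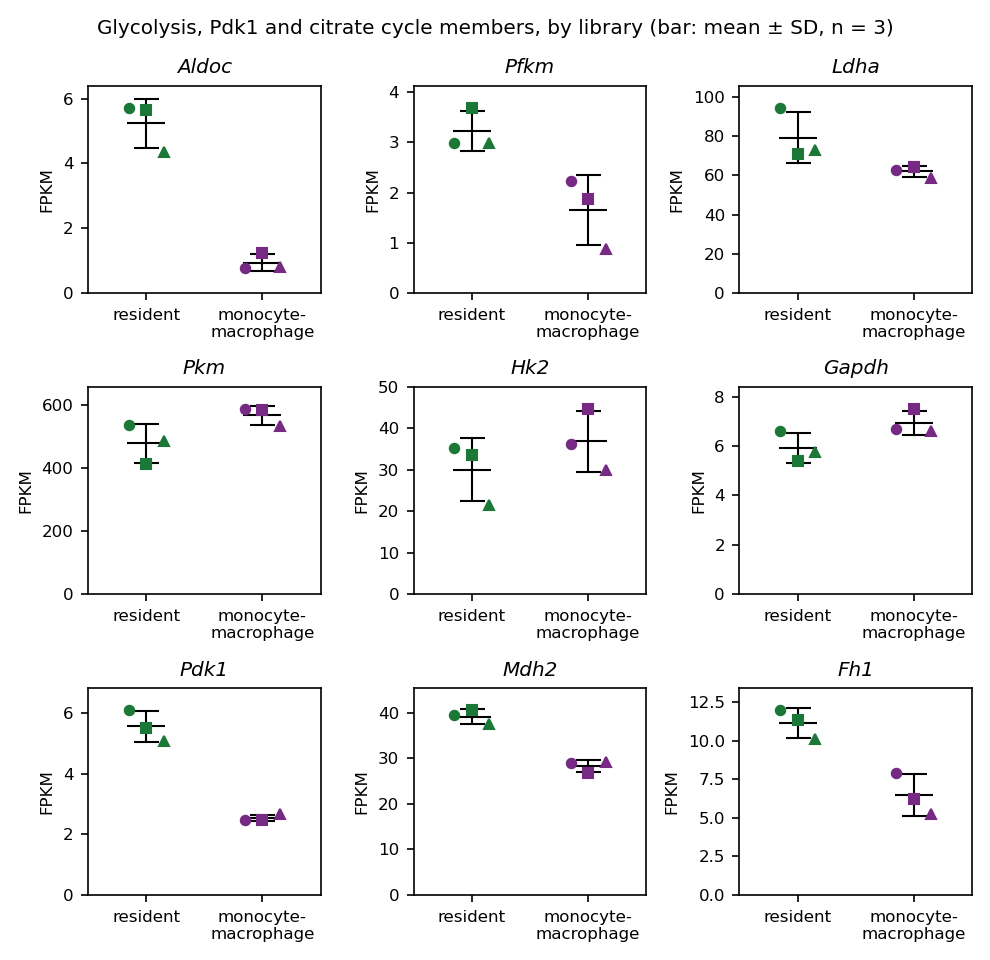
FPKM (y axis, from 0) of glycolysis members, Pdk1 and the citrate cycle genes Mdh2 and Fh1 in resident and monocyte-macrophage libraries; circles, squares and triangles are libraries 1, 2 and 3, and bars show the mean ± SD. Groups are apart for Aldoc, Pfkm, Ldha, Pdk1, Mdh2 and Fh1 and overlap for Pkm, Hk2 and Gapdh.

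Most glycolysis members did not pass. Of the 17 members 2 were higher, 1 was lower and 14 did not pass limma. Of all tested genes 19.9% were called higher and 10.6% lower, and the counts for glycolysis are a description beside those shares. The sum of the 17 was 1065 ± 141 FPKM in resident macrophages and 1184 ± 17.9 FPKM in monocyte-macrophages (SD, n = 3 each). The pyruvate kinase gene Pkm alone gave 479 ± 62.7 and 569 ± 29.9 FPKM of these sums (SD, n = 3 each). Of the 17 members 8 had a log2 fold change above 0 and 9 below. Aldoc, an aldolase best known from brain, rose most of all members (chromosome 11, 78322968 to 78327781). It was at 5.70, 5.64 and 4.36 FPKM in resident libraries, against 0.777, 1.23 and 0.805 FPKM in monocyte-macrophage libraries. The resident libraries were all above the others at a ratio of means of 5.58, with a log2 fold change of 1.69 (SE 0.15, limma adjusted p = 2.6e-04). Aldoc passed the filter through the resident libraries, since only 1 monocyte-macrophage library reached 1 FPKM. Its paralog Aldoa was far more abundant, at 82.8 ± 18.2 and 79.6 ± 9.13 FPKM (SD, n = 3 each) in resident and monocyte-macrophage libraries, with a log2 fold change of 0.04 that turned to -0.044 with median-of-ratios scaling. Aldoc thus made up 5.26% to 6.70% of the summed FPKM of both aldolases in resident libraries, against 0.908% to 1.75% in monocyte-macrophage libraries.

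Pfkm and Gpi1 passed on the deposited scale, but their calls ended in most alternatives. Pfkm, the muscle-type phosphofructokinase, was at 2.99, 3.68 and 2.995 FPKM in resident libraries, against 2.22, 1.88 and 0.874 FPKM in monocyte-macrophage libraries. The groups did not overlap, but the call (log2 fold change 0.70, SE 0.21, limma adjusted p = 0.042) ended in 12 of 15 alternatives, among them all 3 without a single resident library, where adjusted p ran from 0.087 to 0.14, and those without monocyte-macrophage library 2 or 3, at 0.055 and 0.056. Gpi1, glucose-6-phosphate isomerase, the enzyme at which glycolysis parts from the pentose phosphate branch, was at 39.8, 39.4 and 33.9 FPKM in resident libraries, against 44.4, 52.1 and 48.4 FPKM in monocyte-macrophage libraries. It fell by 0.35 (SE 0.11, limma adjusted p = 0.044), a call that ended in 11 of 16 alternatives, with adjusted p from 0.076 to 0.145 without any of the 3 resident libraries or without monocyte-macrophage library 2 or 3. The ratio of G6pdx to Gpi1 was 0.919, 0.844 and 0.959 in resident libraries, against 1.86, 1.31 and 1.98 in monocyte-macrophage libraries.

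The hexokinases and the other phosphofructokinases, Pfkp and Pfkl, did not pass. Hk2, the hexokinase that activated macrophages induce, was at 35.3, 33.5 and 21.4 FPKM in resident libraries, against 36.2, 44.7 and 29.9 FPKM in monocyte-macrophage libraries, and the groups overlapped. Hk3, a hexokinase of myeloid cells, was at 16.8, 18.5 and 14.0 FPKM in resident libraries, against 17.98, 18.1 and 28.5 FPKM in monocyte-macrophage libraries. Hk1 had a log2 fold change of 0.07, which was below 0 with median-of-ratios scaling and quantile normalization, yet as a share of the 3 hexokinases it was 18.2%, 15.4% and 21.3% in resident libraries, against 13.8%, 14.6% and 14.2% in monocyte-macrophage libraries, without overlap. Pfkp, the platelet-type phosphofructokinase, was at 19.2, 19.3 and 17.9 FPKM in resident libraries, against 16.6, 16.4 and 14.5 FPKM in monocyte-macrophage libraries; the groups were apart, with a log2 fold change of 0.23 that did not pass (adjusted p = 0.11). Pfkl, the liver type, had 0.43 (adjusted p = 0.073) and passed on the TPM scale (adjusted p = 0.046), with a term for Y-linked RNA (adjusted p = 0.025), in the 4 libraries low in it (adjusted p = 0.035) and without resident library 3 (adjusted p = 0.016).

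The genes that set the level of fructose bisphosphates gave no call either. Pfkfb3, which makes the activator of phosphofructokinase, was at 12.1, 11.0 and 9.38 FPKM in resident libraries, against 8.56, 10.1 and 8.02 FPKM in monocyte-macrophage libraries, with overlap. Pfkfb4, of the same family, had a log2 fold change of -0.13. Fbp1, the gluconeogenic bisphosphatase, was at 0.109, 0.0652 and 0.129 FPKM in resident libraries, against 0.147, 0.971 and 0.802 FPKM in monocyte-macrophage libraries, below the filter and not tested. Its values rest on an estimated 1.37 to 23.2 fragments in a library.

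The later steps of glycolysis gave no call. Pkm, pyruvate kinase, had the highest level of all members, at 537, 412 and 487 FPKM in resident libraries, against 588, 584 and 534 FPKM in monocyte-macrophage libraries. The groups overlapped by a few FPKM, and its log2 fold change was -0.25 (adjusted p = 0.25); the table does not separate its M1 and M2 isoforms. Ldha, the lactate dehydrogenase subunit that favours lactate production, was at 94.2, 70.6 and 73.0 FPKM in resident libraries, against 62.8, 64.4 and 58.7 FPKM in monocyte-macrophage libraries. The resident libraries were all higher, but the log2 fold change of 0.34 did not pass (adjusted p = 0.086, and adjusted p = 0.039 with quantile normalization). Ldhb, the subunit that favours pyruvate, had -0.23, with all resident libraries below. Ldha therefore held 87.1%, 85.1% and 84.6% of the summed FPKM of both subunits in resident libraries, against 79.3%, 79.5% and 80.6% in monocyte-macrophage libraries, and the groups did not overlap. Tpi1, Pgk1, Pgam1 and Eno1 had log2 fold changes of 0.21, -0.29, -0.30 and -0.07. Gapdh was listed at 6.61, 5.39 and 5.76 FPKM in resident libraries, against 6.71, 7.50 and 6.59 FPKM in monocyte-macrophage libraries. That is far below its neighbours in the pathway, such as Pgk1 at 74.9 ± 17.2 and 90.6 ± 11.6 FPKM (SD, n = 3 each) in resident and monocyte-macrophage libraries. Gapdh and several other glycolysis genes have many processed pseudogenes, and Eno1 a near-identical copy, Eno1b, listed at 31.3 to 42.0 FPKM in resident libraries and 39.9 to 47.1 FPKM in monocyte-macrophage libraries, so their levels are uncertain.

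**Figure D4:**
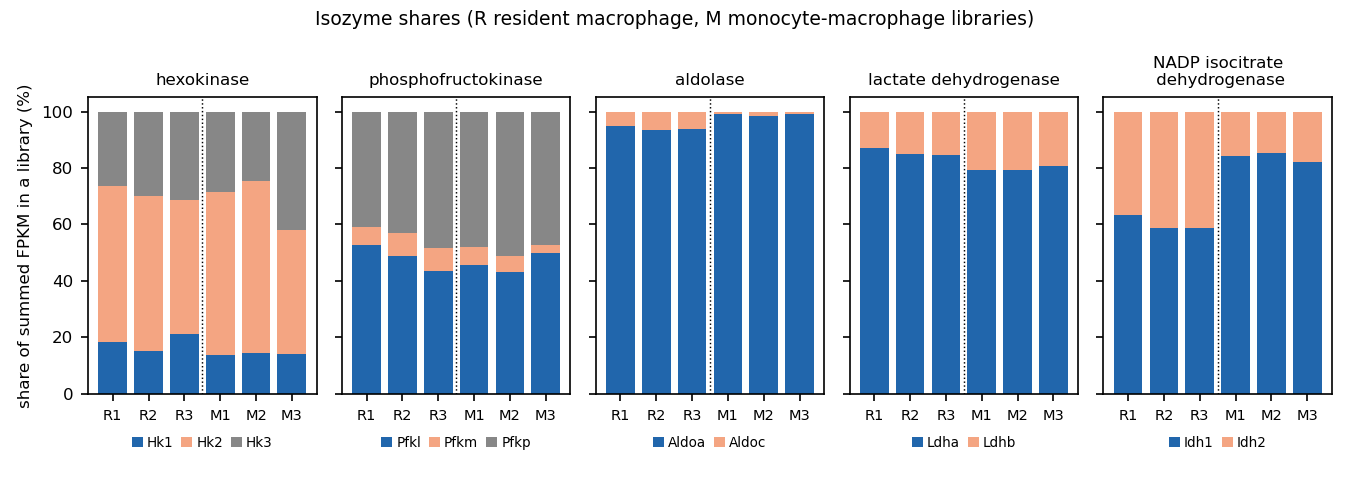
Share of each isozyme in the summed FPKM of its family (y axis, %) in resident (R1 to R3) and monocyte-macrophage (M1 to M3) libraries. Idh1 makes up 58.8% to 63.2% of the NADP isocitrate dehydrogenases in resident libraries and 82.1% to 85.2% in monocyte-macrophage libraries, while the shares of Hk2 and Pfkl overlap.

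Resident library 1 carried the highest glycolysis levels of its group. It was the highest resident library for 14 of the 17 glycolysis members, and its sum of 1225 FPKM compared with 964 and 1004 FPKM in resident libraries 2 and 3 and 1164 to 1198 FPKM in monocyte-macrophage libraries. Without it the sum differed by -0.27 on the log2 scale, against -0.16 with all libraries. Its pentose phosphate members summed to 243 FPKM, beside 224 and 220 FPKM in resident libraries 2 and 3, and its citrate cycle members to 241 FPKM, beside 232 and 230 FPKM.

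**Figure D5:**
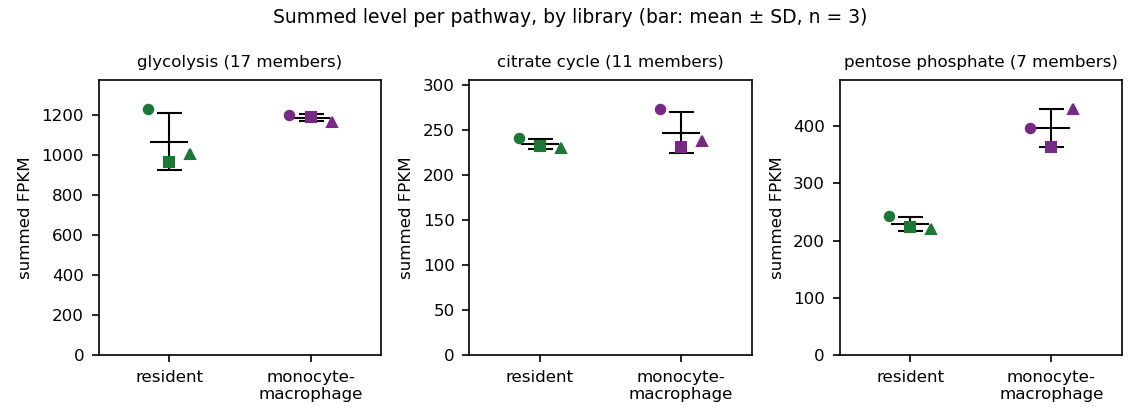
Summed FPKM (y axis, from 0) of the glycolysis, citrate cycle and pentose phosphate members in resident and monocyte-macrophage libraries; circles, squares and triangles are libraries 1, 2 and 3, and bars show the mean ± SD. The pentose phosphate sums are apart, at 220 to 243 against 364 to 429 FPKM, and the other sums overlap. Idh1, which fell, is part of the citrate cycle sum, and Pkm is the largest member of the glycolysis sum.

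Genes around these pathways, from 8 lists with 116 genes, gave calls in both directions. Of all tested genes 19.9% were called higher and 10.6% lower, and the counts by list are a description beside those shares. Of 9 tested glycogen genes 3 were lower and 1 higher by limma. Pygl, the phosphorylase that releases glucose from glycogen, was at 33.7, 28.5 and 25.6 FPKM in resident libraries, against 76.2, 80.3 and 103 FPKM in monocyte-macrophage libraries. Every resident library was far below, and Pygl fell by 1.53 on the log2 scale (SE 0.15, limma adjusted p = 3.4e-04). Gyg, which primes glycogen chains, fell by 0.99 and Ugp2, which makes the UDP-glucose they grow from, by 0.54, while the phosphorylase paralog Pygb rose by 0.68. Among 5 other tested pentose phosphate genes, Prps2, which turns ribose 5-phosphate into the nucleotide precursor, rose by 0.80 and the ribokinase gene Rbks fell by 0.67. The other citrate cycle list had 1 higher of 11 tested by limma and 10 that did not pass: Suclg2 rose by 0.59, while Sdha (succinate dehydrogenase) and Acod1, which makes itaconate, had log2 fold changes of 0.26 and 0.60 that did not pass. The other glycolysis and gluconeogenesis list had 1 higher of 10 tested by limma and 9 that did not pass, G6pc3 rising by 0.56.

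Among 13 transporters 3 were higher and 1 lower, where 19.9% of all tested genes were called higher and 10.6% lower. Slc37a2, a sugar phosphate exchanger of macrophages, was at 8.93, 8.53 and 8.92 FPKM in resident libraries, against 3.56, 4.26 and 3.01 FPKM in monocyte-macrophage libraries. It rose by 1.10 (SE 0.13, limma adjusted p = 7.2e-04), the citrate carrier Slc25a1 by 0.77 and the glucose transporter Slc2a8, which reached 1 FPKM in resident libraries alone, by 0.56, while Slc2a6 fell by 0.46. The main glucose transporter Slc2a1 averaged 32.7 ± 6.97 FPKM in resident macrophages and 33.6 ± 10.1 FPKM in monocyte-macrophages (SD, n = 3 each), with a log2 fold change of -0.01 (0.039 on the TPM scale), and the lactate exporter Slc16a3 had -0.29; neither passed. Of 17 tested hypoxia genes 1 was higher (P4ha1, by 0.48) and 3 lower (Ero1l, Bnip3l and Mxi1, by 0.79, 0.73 and 0.59), and Hif1a itself stood at 89.7 ± 11.5 and 78.0 ± 10.1 FPKM (SD, n = 3 each) in resident and monocyte-macrophage libraries and did not pass (log2 fold change 0.20). Of 14 tested regulators 5 were higher by limma and 9 did not pass. Myc was at 6.57, 5.31 and 5.07 FPKM in resident libraries, against 1.48, 1.497 and 1.16 FPKM in monocyte-macrophage libraries, a rise of 1.48 (SE 0.14, limma adjusted p = 2.7e-04). Ppargc1b, a coactivator for mitochondrial genes, rose by 1.17, and Max, Mtor and Rptor by 0.58, 0.51 and 0.45. Nfe2l2, which encodes the factor of the antioxidant response element, had a log2 fold change of 0.11 that did not pass. Dendritic cell markers, which sum to between 117 and 180 FPKM in resident libraries and between 12.9 and 16.4 FPKM in monocyte-macrophage libraries, and the T cell markers given above moved with the genes that rose, and their part in it was not tested.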

How the data were processed

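Total RNA of sorted macrophages was measured by RNA sequencing in 6 libraries, 3 per population, grouped by sample title. The authors deposited FPKM in 1 table; per the submitters' processing notes, FastQC, HISAT2 and featureCounts were used with build mm10, while no source used here gives versions, settings, strand or the treatment of reads that map to several places. Genes at 1 FPKM or more in at least 3 libraries (11317) were fitted as log2(FPKM + 1) with limma (version 3.58.1, under R 4.3.3), using a group term and a mean-variance trend, checked on simulated data, with Benjamini-Hochberg adjustment over all of them and a threshold of 0.05. A log2 fold change on this scale understates the change of low genes. FPKM are not counts, so depth was estimated from the steps of the low values with GENCODE M21 exon lengths, matched for 94.3% of symbols; 33.0% to 44.6% of values below 20 reads came out whole within 0.02, so no count test was run. Positions are from GENCODE M21 on mm10. Whether libraries came from separate mice is not stated, so a p-value reflects only how these libraries vary, which may be technical. Members and lists were chosen with earlier results of these data known. By rule, values per library are given for the 4 most changed members that passed in each pathway and for a list of key enzymes, the other members by fold change, and other pathway genes if called with a log2 fold change of at least 1 or on a short list; other genes that passed are named where a list holds few; some genes that the rule names are not reported here. Alternatives were another pseudocount, filter, scaling, variance model, a term for Y-linked RNA, a replicate block and leaving out each library.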

Additional observations from a re-analysis of the deposited data

How the results depend on the processing

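Of the 8 lower members 5 and of the 5 higher members 3 kept their call and direction in every alternative run for them; the exceptions were Gpi1, Rpe and Rpia, and Pfkm and Fh1. Rpe, Rpia and Fh1 lost it only in the 4 libraries low in Y-linked RNA, an alternative chosen after seeing the data, which fits fewer libraries. There 5 members were lower, 3 of them pentose phosphate genes and 0 glycolysis genes, and 1 citrate cycle member was higher. With a filter of 5 FPKM 3 members were higher and 0 of the glycolysis members, since Aldoc and Pfkm were not tested. Higher glycolysis members numbered 1 with a pseudocount of 0.1, with no filter and with median-of-ratios scaling. Lower glycolysis members numbered 0 with no filter, on the TPM scale, with quantile normalization, without the trend and with the replicate block. The cause was not tested. Leaving out each library in turn gave 4 to 6 higher and 7 to 8 lower members, 1 to 2 higher and 0 to 1 lower glycolysis members, 5 lower pentose phosphate members each time, and 2 to 3 higher and 1 to 2 lower citrate cycle members.

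Signs turned for members that had not passed: Hk1 (-0.0090 with median-of-ratios scaling, -0.0064 with quantile normalization, -0.019 to 0.14 without a library), Aldoa (-0.044 with median-of-ratios scaling, -0.12 to 0.18 without a library), Eno1 (-0.18 to 0.030 without a library), Suclg1 (-0.066 with median-of-ratios scaling, -0.072 with quantile normalization, -0.042 in the 4 libraries, -0.021 to 0.077 without a library), Hk2 (0.062 in the 4 libraries) and Slc2a1 (0.039 on the TPM scale, 0.18 in the 4 libraries). For Slc2a1 the range without a library was -0.26 to 0.18. With quantile normalization the median over all genes shifted by -0.11 on the log2 scale, to -0.05. With median-of-ratios scaling 1891 genes were higher and 1526 lower, and with quantile normalization 1799 and 1702, beside 2249 and 1204 as deposited.

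Whether replicate numbers pair the libraries is not stated. Deviations of same-numbered libraries from their group means correlated at 0.189, -0.147 and -0.0887. Deviations from a mean of 3 libraries constrain each other, so these values cannot show whether same-numbered libraries share a source. The highest correlation between the groups, 0.386, was that of resident library 3 with monocyte-macrophage library 2, the pair with more Y-linked RNA; whether they share a source is not stated. With the replicate block 5 members were higher and 7 lower, and Gpi1 had an adjusted p of 0.089. Me1 and Fbp1 are limited by depth.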

Other observations

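Adpgk, an ADP-dependent glucokinase chosen after its values were seen, was at 24.7, 33.2 and 23.2 FPKM in resident libraries, against 25.9, 55.8 and 116 FPKM in monocyte-macrophage libraries 1 to 3. The neutrophil gene S100a8 was at 257, 201 and 200 FPKM in resident libraries, against 297, 1110 and 2091 FPKM in monocyte-macrophage libraries 1 to 3. Adpgk did not pass (log2 fold change -1.02, limma adjusted p = 0.14), and the part of neutrophil RNA in it was not tested. Slc2a3, another glucose transporter chosen in the same way, was at 2.48, 2.13 and 2.54 FPKM in resident libraries, against 1.37, 4.37 and 5.66 FPKM in monocyte-macrophage libraries. Acod1 was at 35.2, 21.7 and 46.0 FPKM in resident libraries, against 16.7, 37.5 and 15.2 FPKM in monocyte-macrophage libraries. Its call changed without monocyte-macrophage library 2, where the log2 fold change was 0.997 (limma adjusted p = 0.040).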
